A study of Saccharomyces cerevisiae with 12 samples.

Results

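FRM2 (YCL026C-A), HBN1 (YCL026C-B), OYE2 (YHR179W) and OYE3 (YPL171C) were chosen by their systematic names as the nitroreductases and old yellow enzymes of budding yeast, with FRM2 already known to be among the largest rises in pup2-ts. They are 4 of the 5585 protein-coding genes matched in a table of 12768 features. All 4 passed the filter on low counts that left 5560 genes for testing. Because the pup2-ts libraries took part in the choice, values of the 4 genes in pup2-ts against WT and in rpn5-ts against pup2-ts are given as a description with no test. The comparison of rpn5-ts with WT was tested, and it shares its WT libraries with the comparison used for the choice.

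Nitroreductases are flavin-dependent enzymes that pass electrons from NADH or NADPH to nitro groups and other acceptors. FRM2 and HBN1 encode the yeast relatives of the bacterial family. FRM2 was named for a mutant in which unsaturated fatty acids no longer repressed the fatty acid desaturase gene OLE1. Old yellow enzymes carry FMN and use NADPH to reduce the double bond of α,β-unsaturated aldehydes and ketones, products that also arise when lipids are oxidised. OYE2 and OYE3 encode the old yellow enzymes of S. cerevisiae.

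The data are RNA sequencing counts of 12 cultures in 3 groups of 4 biological replicates: pup2-ts, rpn5-ts and WT. Pup2 is an α-ring subunit of the proteasome core particle, and Rpn5 belongs to the lid of its regulatory particle. WT is given as MATa his3Δ1 leu2Δ0 met15Δ0 ura3Δ0, and the names of WT replicates 3 and 4 hold By4741, a common laboratory strain. Both mutants are given as carrying these alleles and, besides the temperature-sensitive allele linked to URA3 (pup2-ts::URA3 or rpn5-ts::URA3), also lys2Δ0 and can1Δ::LEU2-MFA1pr::His3. Effects of a temperature-sensitive allele and of these other differences from WT cannot be told apart. All cultures grew untreated in the rich medium YPD to an optical density near 0.5, and the growth temperature and the number of clones are not given in the sources used here. Each library held 18501508 to 60599134 counts in protein-coding genes. In every group the sample names of replicates 3 and 4, but not of replicates 1 and 2, contain DNAse, although the labels describe DNAse treatment for all 12.

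Some libraries went against their labels. The library labelled rpn5-ts replicate 1 had 213 CPM of LYS2 and 249 CPM of MET17 (MET15), whereas rpn5-ts replicates 2 to 4 had at most 0.181 and 0.0906 CPM. CPM here means counts per 1e6 counts in protein-coding genes after scaling by edgeR's TMM factors. The library labelled rpn5-ts replicate 1 had 733 CPM of RPN5, against 400 to 514 CPM in rpn5-ts replicates 2 to 4. RPN5 was at 277 to 448 CPM in WT and 651 to 821 CPM in pup2-ts. PUP2 was at 496 CPM in the library labelled rpn5-ts replicate 1 and at 368 to 450 CPM in rpn5-ts replicates 2 to 4. It was at 220 to 264 CPM in pup2-ts and 179 to 218 CPM in WT. LYS2 was at most 0.209 CPM in pup2-ts and at 120 to 207 CPM in WT. In the library labelled rpn5-ts replicate 1, URA3 (81.8 CPM) and CAN1 (12.8 CPM) were far from the WT levels given below, as in the other mutant libraries. All 4 pup2-ts libraries held 196 to 587 CPM of MET17 although the labels give met15Δ0, against at most 0.0931 CPM in WT. CAN1, replaced in the mutants, was at 9.78 to 15.1 CPM in pup2-ts and 12.8 to 16.7 CPM in rpn5-ts, against 175 to 224 CPM in WT, and URA3 was at 94.0 to 122 CPM in pup2-ts and 81.8 to 125 CPM in rpn5-ts, against 3.63 to 4.66 CPM in WT. The 6 a-cell genes examined summed to 682 to 1122 CPM in pup2-ts and 754 to 951 CPM in rpn5-ts, against 1185 to 1696 CPM in WT, and the 4 α-cell genes summed to 38.4 to 61.2 CPM over all 12 libraries. Results on rpn5-ts are given for all 4 libraries and for replicates 2 to 4. With replicates 2 to 4, the strain has 1 library from replicates 1 and 2, against 2 in WT. Differences between the replicate sets then enter the comparison, unless replicate number is in the model.

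FRM2 and HBN1 lie in tandem on the minus strand of chromosome III, with 404 bases between their counted intervals. In the build sacCer3 (R64), the FRM2 interval spans chrIII:74490-75387 with its coding sequence at 74704 to 75285, and the HBN1 interval spans chrIII:73343-74085 with its coding sequence at 73405 to 73986. The coding sequences are 582 bases each, with 61.5% identical bases and a longest shared run of 11 bases. OYE2 lies on the plus strand at chrVIII:462461-463807 (coding 462502 to 463704) and OYE3 on the minus strand at chrXVI:226032-227378 (coding 226169 to 227371). Their coding sequences are 1203 bases each, with 73.5% identical bases and a longest shared run of 14 bases. No shared run therefore exceeded 14 bases within either pair.

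The 250 bases before the 5′ end of each counted interval are shown because the 4 genes differ there in matches to known regulatory motifs. They were read from the R64 genome of NCBI RefSeq, 5′ to 3′ on the strand of the gene, at chrIII:75388-75637 (minus) for FRM2, chrIII:74086-74335 (minus) for HBN1, chrVIII:462211-462460 (plus) for OYE2 and chrXVI:227379-227628 (minus) for OYE3. Capitals mark TTACTAA or its reverse complement TTAGTAA, the Yap1 element, in HBN1 and OYE3, and TGGCAAA in FRM2.
FRM2: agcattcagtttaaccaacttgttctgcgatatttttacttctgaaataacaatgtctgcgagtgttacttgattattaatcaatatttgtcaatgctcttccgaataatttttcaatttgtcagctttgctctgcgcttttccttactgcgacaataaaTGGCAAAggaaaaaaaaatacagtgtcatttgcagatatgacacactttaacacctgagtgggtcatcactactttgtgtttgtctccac
HBN1: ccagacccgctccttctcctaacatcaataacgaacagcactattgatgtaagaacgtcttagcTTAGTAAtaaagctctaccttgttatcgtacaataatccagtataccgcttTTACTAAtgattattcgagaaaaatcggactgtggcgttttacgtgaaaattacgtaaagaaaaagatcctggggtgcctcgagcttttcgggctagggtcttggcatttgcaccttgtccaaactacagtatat
OYE2: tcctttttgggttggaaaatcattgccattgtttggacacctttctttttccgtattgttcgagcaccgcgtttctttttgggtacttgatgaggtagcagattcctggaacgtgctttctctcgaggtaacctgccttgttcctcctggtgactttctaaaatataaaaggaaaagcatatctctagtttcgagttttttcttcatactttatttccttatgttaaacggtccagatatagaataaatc
OYE3: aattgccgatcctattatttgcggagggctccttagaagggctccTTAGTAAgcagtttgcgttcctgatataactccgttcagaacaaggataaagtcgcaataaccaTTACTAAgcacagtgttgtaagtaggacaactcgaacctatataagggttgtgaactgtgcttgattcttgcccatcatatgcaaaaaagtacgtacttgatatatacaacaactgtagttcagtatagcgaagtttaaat

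Yap1 is the main activator of the oxidative stress response. HBN1 held 2 matches to TTACTAA on either strand, starting 186 and 135 bases before the interval, and OYE3 held 2, starting 205 and 141 bases before it. FRM2 and OYE2 held none. Over 5585 windows of the same length, 6.89% held at least 1 match and 0.322% held 2 or more. TGACTAA, another form of the element, was in no window of the 4 genes and in 3.35% of all windows. The proteasome element GGTGGCAAA, bound by the activator of proteasome genes Rpn4, was in none of the 4 and in 1.34% of all windows. Its core TGGCAAA, searched after the sequences had been seen and contained in every match to the full element, occurred in 6.95% of all windows and in the FRM2 window, 90 bases before the interval. The Pdr1 drug response element TCCGCGGA (0.230% of windows) and the stress response element AGGGG (1117 of 5585 windows) matched in none of the 4. Both strands were searched for every motif. A match describes these letters in these windows and is not evidence of binding.

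FRM2 had 18.2, 19.8, 19.3 and 18.5 CPM in pup2-ts, 12.4, 12.1, 7.07 and 6.46 CPM in rpn5-ts, and 4.61, 3.61, 1.16 and 1.54 CPM in WT, in the order of replicates 1 to 4. The 3 groups did not overlap, with pup2-ts highest and WT lowest in every library. FRM2 was chosen for its rise in pup2-ts, so the separation of pup2-ts from WT is part of the choice. The share of all tested genes with such a separation was not determined. Means were 18.9 ± 0.717 CPM in pup2-ts, 9.51 ± 3.19 CPM in rpn5-ts and 2.73 ± 1.65 CPM in WT (SD, n = 4 each). The relative spread was smallest in pup2-ts, whose libraries lay between 18.2 and 19.8 CPM. These values rest on 398 to 554 counts per pup2-ts library, 121 to 401 per rpn5-ts library and 25 to 163 per WT library.

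FRM2 rose in rpn5-ts, by 1.80 ± 0.39 on the log2 scale (SE; adjusted p = 0.011, edgeR's quasi-likelihood test with Benjamini-Hochberg adjustment over all genes). It was higher in 4 of 4 rpn5-ts libraries than in any WT library, and the share of all tested genes with this pattern was not determined. Taking rpn5-ts replicates 2 to 4 for the strain, the difference was 1.64 (adjusted p = 0.024), and over all 26 alternatives that gave a value the adjusted p ranged from 2.2e-07 to 0.043. The rise is set against a background of 8.27% of tested genes called higher in rpn5-ts, or 10.4% without that library. Of the 4 genes, 2 were called higher in both settings, FRM2 and OYE3.

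In pup2-ts the log2 fold change of FRM2 over WT was 2.79 ± 0.40, which gave it rank 5 by size of rise among 5180 genes of at least 10 CPM on average, a level that FRM2 reached only through pup2-ts. MAG1, a DNA glycosylase of base excision repair, stood just above it with 2.87, and GCN5, a histone acetyltransferase, just below it with 2.55. The log2 difference of rpn5-ts over pup2-ts was -0.99 ± 0.37. These are the values behind the choice of FRM2 and carry no test.

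HBN1 had 1.35, 1.88, 9.12 and 9.60 CPM in pup2-ts, 1.76, 3.12, 8.92 and 9.40 CPM in rpn5-ts, and 2.49, 2.17, 5.26 and 4.54 CPM in WT. The 3 strains overlapped, and in each of them replicates 3 and 4 were above replicates 1 and 2. The log2 difference of rpn5-ts over WT was 0.67 ± 0.69 and did not pass the test (adjusted p = 0.55), and it did not pass with the library labelled rpn5-ts replicate 1 left out (0.98, adjusted p = 0.34). With that library left out and replicate number in the model as a block, the difference was 0.61 (adjusted p = 0.17). Replicates 3 and 4 alone gave 0.94 (adjusted p = 7.5e-05) and replicates 1 and 2 alone gave 0.07 (adjusted p = 0.92), the lowest and highest adjusted p over 25 alternatives. Each of these 2 fits held 2 libraries per strain. In rpn5-ts 1823 of 5556 tested genes were called higher in replicates 3 and 4 alone, against 386 of 5567 in replicates 1 and 2 alone. In pup2-ts the log2 fold change was 0.60 ± 0.69 in all, 0.97 in replicates 3 and 4 and -0.53 in replicates 1 and 2.

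OYE2 was the most abundant of the 4 genes, with 920, 898, 939 and 969 CPM in pup2-ts, 860, 627, 910 and 883 CPM in rpn5-ts, and 507, 553, 968 and 763 CPM in WT. The 4 pup2-ts libraries lay close together, and WT replicate 3 reached their upper end. The log2 difference of rpn5-ts over WT was 0.23 ± 0.20 and did not pass the test (adjusted p = 0.47), nor in any of 26 alternatives (adjusted p from 0.11 to 0.74). With rpn5-ts replicates 2 to 4 for the strain, it was 0.21 (adjusted p = 0.53). In pup2-ts the log2 fold change was 0.42 ± 0.20 in all, 0.15 in replicates 3 and 4 and 0.78 in replicates 1 and 2.

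OYE3, the close relative of OYE2, had 3.42, 4.85, 3.06 and 3.45 CPM in pup2-ts, 2.51, 13.96, 9.74 and 8.01 CPM in rpn5-ts, and 4.13, 3.16, 3.31 and 2.86 CPM in WT. Replicates 2 to 4 of rpn5-ts stood above all other libraries, and the library labelled rpn5-ts replicate 1 was the lowest of the 12. OYE3 rose in rpn5-ts by 1.34 ± 0.40 on the log2 scale (adjusted p = 0.045), and with the library labelled rpn5-ts replicate 1 left out the rise was 1.65 ± 0.24 (adjusted p = 0.0012). The call with all 12 libraries was close to the threshold: it was lost on leaving out any of the other 11 libraries, and over 25 alternatives the adjusted p ranged from 4.4e-06 to 0.34, with 11 past the threshold. In pup2-ts the log2 fold change was 0.14 ± 0.40, and the log2 difference of rpn5-ts over pup2-ts was 1.21 ± 0.40. Annotated antisense units at OYE3 held 1.26% to 3.83% of its counts.

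**Figure D1:**
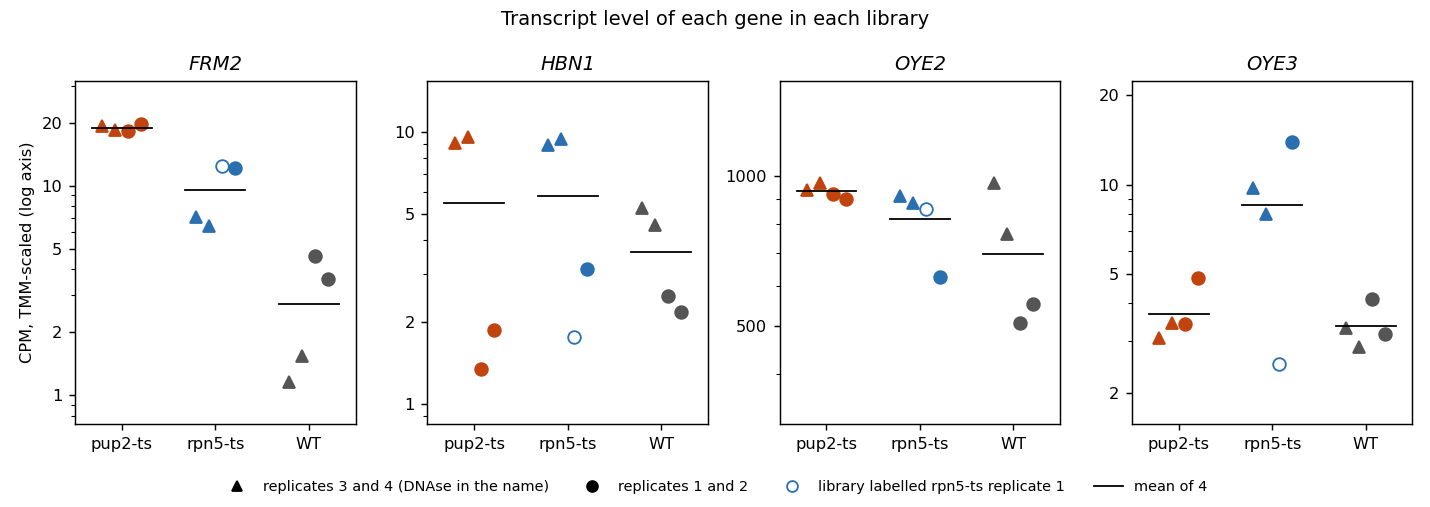
Level of FRM2, HBN1, OYE2 and OYE3 in each of the 12 libraries, in CPM on log axes that differ between panels, for pup2-ts, rpn5-ts and WT. Triangles are replicates 3 and 4, circles replicates 1 and 2, the open circle is the library labelled rpn5-ts replicate 1, and lines are means of 4. FRM2, chosen for its rise in pup2-ts, separates the 3 strains, with means of 18.9 CPM in pup2-ts, 9.51 CPM in rpn5-ts and 2.73 CPM in WT. The share of all tested genes that separate in this way was not determined. HBN1 separates replicates 3 and 4 from 1 and 2 within each strain, and OYE3 is high in rpn5-ts replicates 2 to 4 (8.01 to 13.96 CPM).

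Levels of different genes were compared per kilobase of counted interval. OYE2 had 691 ± 22.4 CPM per kilobase in pup2-ts, 609 ± 96.7 in rpn5-ts and 518 ± 157 in WT. FRM2 had 21.1 ± 0.799 in pup2-ts, 10.6 ± 3.55 in rpn5-ts and 3.04 ± 1.84 in WT. HBN1 had 7.38 ± 6.03 CPM per kilobase in pup2-ts, 7.81 ± 5.28 in rpn5-ts and 4.87 ± 2.04 in WT, and OYE3 had 2.74 ± 0.587 in pup2-ts, 6.35 ± 3.52 in rpn5-ts and 2.497 ± 0.403 in WT (SD, n = 4 each). OYE2 was first in level in all 3 strains. FRM2 came next in both mutants on average and HBN1 in WT, but the ranges of FRM2 and HBN1 overlapped within rpn5-ts and within WT.

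**Figure D2:**
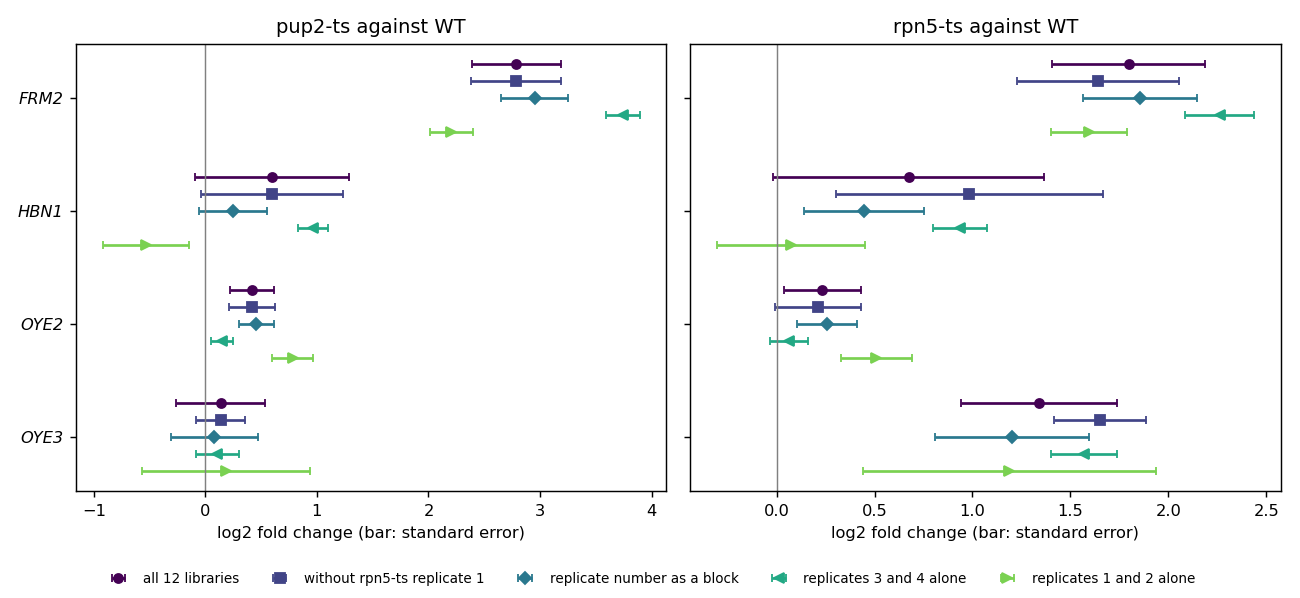
Log2 fold changes of the 4 genes in pup2-ts and rpn5-ts against WT under 5 choices of libraries and model, with standard errors as bars. The 2 panels have different scales. FRM2 lies to the right of 0 under every choice, OYE3 does so in rpn5-ts (1.34 with all 12 libraries), and HBN1 in pup2-ts lies on different sides of 0 in replicates 3 and 4 (0.97) and in replicates 1 and 2 (-0.53).

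The libraries whose names hold DNAse, replicates 3 and 4, differed from replicates 1 and 2 in 63.1% of tested genes, so 3 of the 4 genes called in this comparison is close to the background. HBN1 was higher in replicates 3 and 4 by 1.83 ± 0.24 on the log2 scale with strain in the model (adjusted p = 2.9e-05), with 4.54 to 9.60 CPM in replicates 3 and 4 and 1.35 to 3.12 CPM in replicates 1 and 2. OYE2 was higher in replicates 3 and 4 by 0.35 ± 0.12 (adjusted p = 0.022), with 763 to 969 CPM in replicates 3 and 4 and 507 to 920 CPM in replicates 1 and 2. FRM2 was lower in replicates 3 and 4, with a log2 difference of -0.74 ± 0.21 (adjusted p = 0.0082). The call of OYE2 was lost with upper-quartile factors and on leaving out WT replicate 2, and that of FRM2 with limma-voom (adjusted p = 0.054). For OYE3 the log2 difference was -0.15 ± 0.32 and did not pass (adjusted p = 0.71).

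The difference between the replicate sets was also read within each strain. In rpn5-ts, FRM2 had 7.07 and 6.46 CPM in replicates 3 and 4 and 12.4 and 12.1 CPM in replicates 1 and 2. In WT it had 1.16 and 1.54 CPM in replicates 3 and 4 and 4.61 and 3.61 CPM in replicates 1 and 2, whereas in pup2-ts all 4 libraries lay between 18.2 and 19.8 CPM. On the log2 scale the differences of replicates 3 and 4 over 1 and 2 were -0.0025 in pup2-ts, -0.86 in rpn5-ts and -1.56 in WT. For HBN1 they were 2.54 in pup2-ts, 1.93 in rpn5-ts and 1.06 in WT. The values in pup2-ts are a description. Between rpn5-ts and WT the interaction of strain and replicate set, a test chosen after the pattern had been seen, passed for none of the 4 genes (FRM2 adjusted p = 0.15, HBN1 0.21, OYE2 0.28 and OYE3 0.81), against 1.67% of tested genes called. The unadjusted p was 0.016 for FRM2 and 0.039 for HBN1, and with the library labelled rpn5-ts replicate 1 left out the adjusted p was 0.21 for FRM2 and 0.42 for HBN1. Read within each set, the log2 difference of FRM2 between rpn5-ts and WT was 2.26 in replicates 3 and 4 (adjusted p = 2.2e-07) and 1.595 in replicates 1 and 2 (adjusted p = 0.0056). These fits held 2 libraries per strain and called 1823 of 5556 and 386 of 5567 tested genes higher in rpn5-ts.

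**Figure D3:**
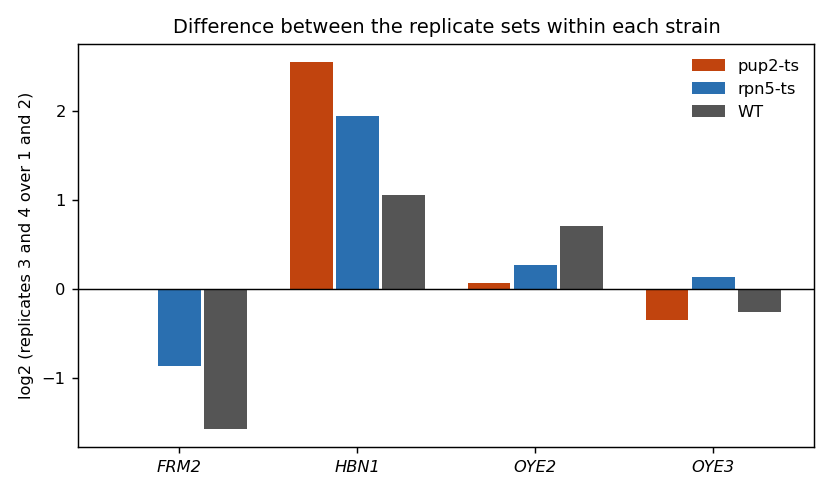
Log2 difference of replicates 3 and 4 over replicates 1 and 2 within pup2-ts, rpn5-ts and WT for the 4 genes, without error bars. HBN1 is above 0 in pup2-ts (2.54), rpn5-ts (1.93) and WT (1.06), and FRM2 is near 0 in pup2-ts and below it in rpn5-ts (-0.86) and WT (-1.56).

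Ratios between the members of a pair need no scaling between libraries. FRM2 over HBN1, per kilobase, was 11.2, 8.70, 1.75 and 1.599 in pup2-ts, 5.82, 3.21, 0.655 and 0.569 in rpn5-ts, and 1.53, 1.37, 0.183 and 0.280 in WT. FRM2 exceeded HBN1 in all 4 pup2-ts libraries, and the ratio crossed 1 between replicates 1 and 2 and replicates 3 and 4 in rpn5-ts and in WT. The mean log2 ratio was 0.70 ± 1.67 in rpn5-ts and -0.80 ± 1.57 in WT (SD, n = 4 each), a difference of 1.503 that did not pass a two-sided exact permutation test (p = 0.29, and 0.29 adjusted over the 2 ratios). That test takes no account of replicate numbers. Between libraries of the same number the log2 ratio was higher in rpn5-ts than in WT in all 4 pairs, by 1.93, 1.22, 1.84 and 1.02, with a two-sided exact sign-flip p of 0.125, the smallest that 4 pairs allow (0.25 adjusted over the 2 ratios). For rpn5-ts replicates 2 to 4 against WT, the difference of means was 0.89 (exact p = 0.57). That comparison holds 1 rpn5-ts library from replicates 1 and 2 against 2 from WT, so the difference between the replicate sets enters it. Within the sets the difference was 1.43 in replicates 3 and 4 and 1.57 in replicates 1 and 2.

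OYE3 over OYE2, per kilobase, was between 0.00326 and 0.00540 in pup2-ts, between 0.00292 and 0.0223 in rpn5-ts and between 0.00341 and 0.00814 in WT. OYE2 transcripts thus outnumbered those of OYE3 in all 12 libraries. The mean log2 ratio was -6.81 ± 1.21 in rpn5-ts and -7.66 ± 0.58 in WT, and the difference of 0.85 did not pass the exact permutation test (p = 0.26, and 0.29 adjusted over the 2 ratios; 4 against 4 libraries allow 0.029 at the lowest). Taking rpn5-ts replicates 2 to 4 for the strain, it was 1.39 with an exact p of 0.057, the smallest that 3 against 4 libraries allow.

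The genes beside FRM2 and HBN1 were examined next. On the side of HBN1 lie FUS1, a membrane protein of mating cells, and RNQ1, a prion protein. On the other side lie AGP1, an amino acid permease, and KCC4, a kinase of the bud neck. In rpn5-ts against WT 0 of these 4 passed edgeR's test (1 had an unadjusted p under 0.05, DESeq2 called 1 and limma-voom 0), with log2 fold changes from -0.51 (AGP1, adjusted p = 0.38) to 0.31 (RNQ1, adjusted p = 0.70). With rpn5-ts replicates 2 to 4 for the strain, AGP1 was lower, with a log2 fold change of -0.97 (adjusted p = 0.045). In pup2-ts KCC4 fell to 34.3 ± 6.004 CPM, against 50.2 ± 1.91 CPM in WT (log2 fold change -0.55, adjusted p = 0.017), while RNQ1, FUS1 and AGP1 did not pass. With the replicate block, 3 of the 4 passed in pup2-ts (RNQ1 higher by 0.21, adjusted p = 0.031; AGP1 lower with -0.77, adjusted p = 0.035; KCC4 lower with -0.57, adjusted p = 0.0041) and 2 in rpn5-ts (RNQ1 higher by 0.36, adjusted p = 0.003; KCC4 lower with -0.40, adjusted p = 0.021). Of all 5560 tested genes, 2142 passed with the block in pup2-ts and 2256 in rpn5-ts, against 855 and 760 without it. The HBN1 interval shares 90 bases with the FUS1 interval on the opposite strand. An annotated transcript unit nested in FRM2 on the same strand held 99.1% of the FRM2 count, so the table assigns the same reads to both.

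**Figure D4:**
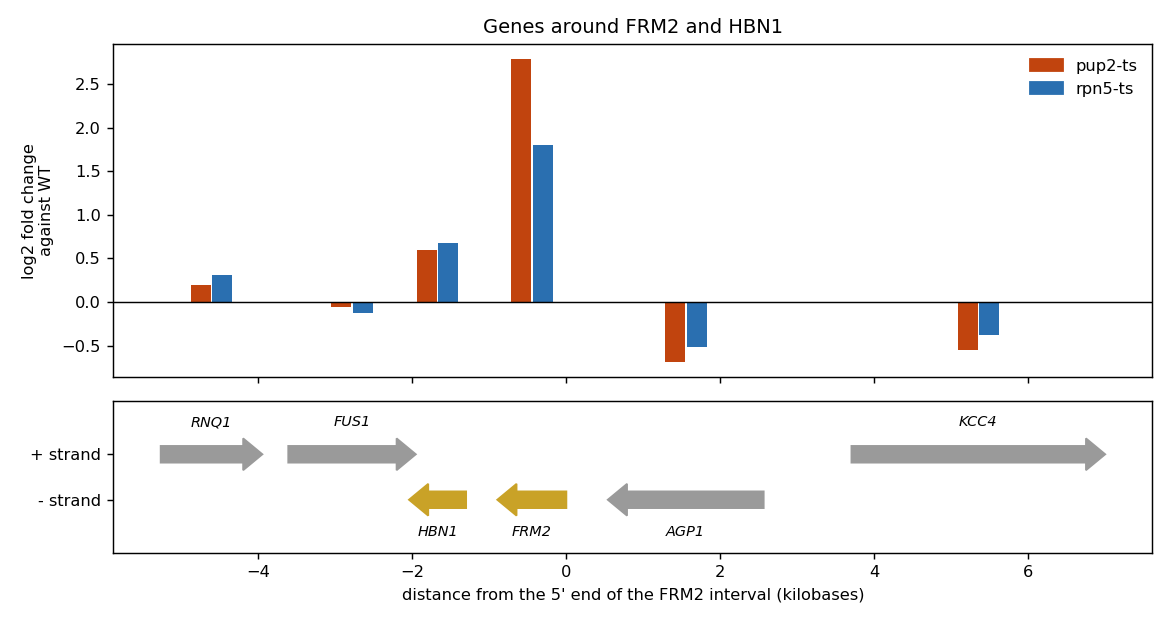
Log2 fold changes against WT of the 6 genes around FRM2 and HBN1 (upper panel, pup2-ts and rpn5-ts) above their counted intervals by strand (lower panel), by distance in kilobases from the 5′ end of the FRM2 interval. The bars of FRM2 (2.79 in pup2-ts and 1.80 in rpn5-ts) stand above those of the 5 other genes drawn, among which HBN1 is highest (0.60 in pup2-ts and 0.67 in rpn5-ts).

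Beside OYE2 lie STB5, an activator of NADPH-producing genes, and ROF1 on one side and SVP26 and YHR180W on the other. STB5 was lower in both mutants, at 17.6 ± 2.15 CPM in pup2-ts and 17.9 ± 1.55 CPM in rpn5-ts, against 23.0 ± 0.634 CPM in WT (SD, n = 4 each). Its log2 fold change was -0.39 in pup2-ts (adjusted p = 0.035) and -0.36 in rpn5-ts (adjusted p = 0.04996, just under the threshold, and 0.047 with the library labelled rpn5-ts replicate 1 left out). ROF1 was lower in pup2-ts, at 1.996 ± 0.220 CPM against 4.70 ± 1.39 CPM in WT (adjusted p = 0.025), and did not pass in rpn5-ts (6.19 ± 2.37 CPM, adjusted p = 0.44). MRPL40, COX10, DAP1 and MEX67, beside OYE3, did not pass in either mutant, with log2 fold changes from -0.31 to 0.29 (in pup2-ts 1 of the 4 had an unadjusted p under 0.05 and DESeq2 called 1; in rpn5-ts both counts were 0). With the block, COX10 was lower in pup2-ts (-0.31, adjusted p = 0.014) and MRPL40 was higher in rpn5-ts (0.27, adjusted p = 0.032). These calls are to be read against the block counts of all tested genes given above.

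Other genes of the pathways around these enzymes were taken from 6 lists of 100 genes in all, of which 97 were tested and which hold none of the 4 genes. The lists were chosen with earlier results of these data known. In pup2-ts against WT 25 list genes passed, against 15.4% of all tested genes (8.72% higher), and in rpn5-ts against WT 20 passed, against 13.7% (8.27% higher). Of all 5560 tested genes, 485 were higher and 370 lower in pup2-ts, and 460 were higher and 300 lower in rpn5-ts. The counts of each list below without the block are to be read against these. With the replicate number as a block the counts were 52 in pup2-ts and 50 in rpn5-ts. The block also raised the number called among all 5560 tested genes, to 2142 in pup2-ts, against 855 without it, and to 2256 in rpn5-ts, against 760 without it. Under the block 19.5% of all tested genes were higher and 19% lower in pup2-ts, and 20.7% were higher and 19.9% lower in rpn5-ts, and the block counts of the lists below are to be read against these shares.

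The list of aldehyde and ketone reductases, enzymes that use NADPH or NADH, held the most genes called higher in both mutants. It also holds quinone reductases such as LOT6, which is among the genes called. Of 25 listed, 22 were tested, and 6 were higher and 0 lower in pup2-ts, and 7 higher and 0 lower in rpn5-ts. Of all tested genes, 8.72% were higher in pup2-ts and 8.27% in rpn5-ts. Taking rpn5-ts replicates 2 to 4 for the strain, 9 were higher than in WT. The block gave 9 higher in pup2-ts and 13 in rpn5-ts, with 0 lower in both. The median log2 fold change of the list was 0.33 in pup2-ts and 0.48 in rpn5-ts, against -0.023 for all genes in both comparisons. In replicates 1 and 2 alone it was 0.11 in pup2-ts and 0.31 in rpn5-ts, and 1 gene was lower in each mutant. In replicates 3 and 4 alone it was 0.49 in pup2-ts and 0.61 in rpn5-ts. YDL124W, an α-keto amide reductase, was at 399 to 810 CPM in pup2-ts and 388 to 719 CPM in rpn5-ts, against 82.3 to 229 CPM in WT. Its log2 fold change was 1.91 ± 0.37 in pup2-ts (adjusted p = 0.0052) and 1.79 ± 0.37 in rpn5-ts (adjusted p = 0.0084). GRE2, a methylglyoxal reductase, rose by 1.21 in pup2-ts (adjusted p = 0.005) and by 0.87 in rpn5-ts (adjusted p = 0.028), and the call in rpn5-ts was lost with the library labelled rpn5-ts replicate 1 left out (0.78, adjusted p = 0.055). YNL134C, an NADH-dependent aldehyde reductase, rose by 1.45 in pup2-ts (adjusted p = 0.006) and by 1.05 in rpn5-ts (adjusted p = 0.031). LOT6, a quinone reductase that also uses a flavin, rose by 0.45 in pup2-ts (adjusted p = 0.024) and by 0.59 in rpn5-ts (adjusted p = 0.0074). ADH7, an alcohol dehydrogenase, rose by 0.80 in rpn5-ts at a low level (2.66 to 3.67 CPM, against 1.54 to 2.14 CPM in WT; adjusted p = 0.019), and in pup2-ts its log2 fold change was 0.41 (adjusted p = 0.19).

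Of 22 tested targets of Yap1 and Skn7 in the peroxide and diamide response, 2 were higher and 0 lower in pup2-ts, and 2 were higher and 0 lower in rpn5-ts, numbers close to the shares of all tested genes called higher. With the block the counts were 8 higher and 4 lower in pup2-ts and 8 higher and 2 lower in rpn5-ts. The median log2 fold change was 0.19 in pup2-ts and 0.16 in rpn5-ts. TRX2, a thioredoxin, was at 324 to 482 CPM in pup2-ts and 328 to 389 CPM in rpn5-ts, against 134 to 214 CPM in WT. Its log2 fold change was 1.10 ± 0.17 in pup2-ts (adjusted p = 0.0011) and 0.87 ± 0.17 in rpn5-ts (adjusted p = 0.0061). Like HBN1 and OYE3, TRX2 held 2 matches to TTACTAA in its window. TRX2 was the only gene of this list whose matches were read, and GRE2, named above, held none. ATR1, a drug transporter, rose by 1.22 in pup2-ts (adjusted p = 0.028), and PRX1, a mitochondrial peroxiredoxin, rose by 0.61 in rpn5-ts (adjusted p = 0.038).

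Among 12 transcription factors, 2 were higher and 1 lower in pup2-ts, and 1 higher and 2 lower in rpn5-ts. With the block there were 4 higher and 4 lower in pup2-ts and 3 higher and 3 lower in rpn5-ts. PDR1, an activator of drug resistance genes, rose by 0.87 ± 0.11 in pup2-ts (adjusted p = 0.00024) and by 0.87 ± 0.11 in rpn5-ts (adjusted p = 0.00036). YAP1 rose by 0.90 in pup2-ts (455 to 524 CPM, against 187 to 385 CPM in WT; adjusted p = 0.015). In rpn5-ts YAP1 was at 359 to 488 CPM, a log2 difference of 0.70 that did not pass (adjusted p = 0.051), though it passed with the block (adjusted p = 0.0024). SKN7, a partner of Yap1, fell by 0.36 on the log2 scale in rpn5-ts (adjusted p = 0.047), a call lost with the library labelled rpn5-ts replicate 1 left out (adjusted p = 0.082), and its log2 difference in pup2-ts was -0.34 (adjusted p = 0.052, or 0.0074 with the block). RPN4 itself did not pass in pup2-ts (-0.68, adjusted p = 0.32, or 0.047 with the block) or rpn5-ts (-0.58, adjusted p = 0.39), with WT libraries spread from 102 to 389 CPM. HSF1, CAD1, YRR1, YRM1, PDR3, MSN2 and MSN4 also did not pass in either mutant. With the block, HSF1 was higher in pup2-ts (0.74, adjusted p = 0.023) and rpn5-ts (0.67, adjusted p = 0.031), CAD1 was higher in pup2-ts (0.32, adjusted p = 0.019), and MSN2 was lower in pup2-ts (-0.31, adjusted p = 0.021) and rpn5-ts (-0.28, adjusted p = 0.027).

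Genes that supply NADPH, the electron donor of the old yellow enzymes, numbered 14. In pup2-ts 2 were higher and 1 lower, and in rpn5-ts 3 were higher and 1 lower, with 3 higher and 3 lower in pup2-ts and 4 higher and 3 lower in rpn5-ts under the block. SOL4, a phosphogluconolactonase, rose by 1.02 in pup2-ts (adjusted p = 0.025) and by 1.53 in rpn5-ts (adjusted p = 0.0037). TKL2, a transketolase, rose by 2.17 in pup2-ts (adjusted p = 0.017) and by 1.92 in rpn5-ts (adjusted p = 0.031). In the library labelled rpn5-ts replicate 1 TKL2 was at 2.26 CPM, against 9.94 to 17.4 CPM in rpn5-ts replicates 2 to 4. GND2, a phosphogluconate dehydrogenase, rose by 1.16 in rpn5-ts (adjusted p = 0.029), and that library was again the lowest of its group at 5.48 CPM, against 11.4 to 17.6 CPM. MAE1, the malic enzyme, fell in both mutants, with log2 fold changes of -1.23 in pup2-ts (adjusted p = 0.025) and -1.40 in rpn5-ts (adjusted p = 0.016).

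Multidrug resistance genes moved in both directions in pup2-ts. Of 16 tested, 3 were higher and 3 lower there. In rpn5-ts 0 were called by edgeR's test, while 9 had an unadjusted p under 0.05, DESeq2 called 3 and limma-voom 0. There were 3 higher and 0 lower with the library labelled rpn5-ts replicate 1 left out and 3 higher and 3 lower with the block. RTA1, a membrane protein of lipid resistance, rose by 2.08 in pup2-ts (adjusted p = 0.0041), PDR16, a phosphatidylinositol transfer protein, by 0.48 (adjusted p = 0.012) and YOR1, an ABC transporter, by 0.82 (adjusted p = 0.025). TPO4, a polyamine transporter, fell in pup2-ts with a log2 fold change of -2.03 (adjusted p = 0.011), as did PDR12, an exporter of weak acids, with -0.97 (adjusted p = 9.5e-05) and TPO1, another polyamine transporter, with -0.52 (adjusted p = 0.011).

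Fatty acid desaturation was examined because of the phenotype that named FRM2. Mga2 and Spt23 are membrane-bound activators of OLE1 that the proteasome processes into their active form. OLE1 was at 388 to 604 CPM in pup2-ts and 287 to 426 CPM in rpn5-ts, against 1099 to 1904 CPM in WT. It fell in both mutants, with log2 fold changes of -1.67 ± 0.22 in pup2-ts (adjusted p = 0.00041) and -2.01 ± 0.22 in rpn5-ts (adjusted p = 0.00015). MGA2 fell too, with -0.90 in pup2-ts (adjusted p = 0.0099) and -0.86 in rpn5-ts (adjusted p = 0.014). SPT23 did not pass, with -0.079 in pup2-ts (adjusted p = 0.67) and -0.12 in rpn5-ts (adjusted p = 0.46). FAA1, an acyl-CoA synthetase, fell by 0.57 in pup2-ts (adjusted p = 0.0057), and FAA4, another, fell by 0.97 in rpn5-ts (adjusted p = 0.021). ACB1, an acyl-CoA binding protein, rose by 0.71 in pup2-ts (adjusted p = 0.018) and by 0.67 in rpn5-ts (adjusted p = 0.026). Of the 11 genes, 1 was higher and 4 lower in pup2-ts, and 1 higher and 3 lower in rpn5-ts, with medians of -0.67 in pup2-ts and -0.71 in rpn5-ts. In replicates 1 and 2 alone the medians were -0.30 in pup2-ts and -0.19 in rpn5-ts. In replicates 3 and 4 alone they were -0.83 in pup2-ts and -0.79 in rpn5-ts. Of all 5560 tested genes, 370 were lower in pup2-ts and 300 in rpn5-ts. The block gave 2 higher and 8 lower in pup2-ts and 2 higher and 6 lower in rpn5-ts.

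**Figure D5:**
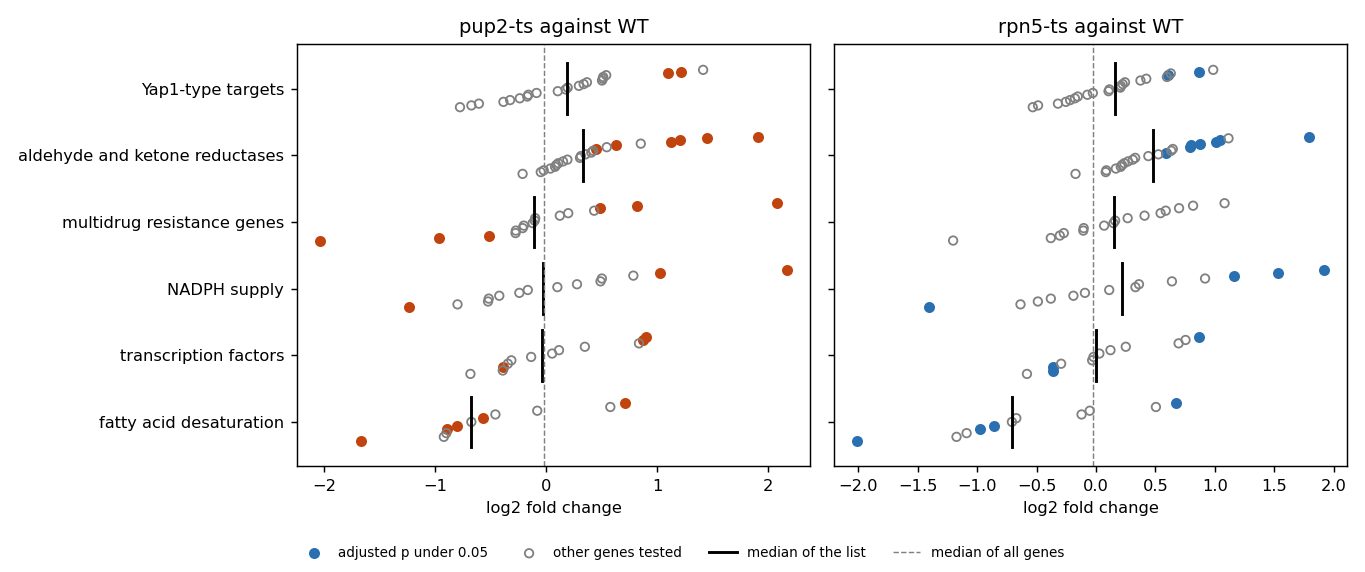
Log2 fold changes against WT of the 97 tested list genes in pup2-ts and rpn5-ts, by list, on axes that differ between panels. Filled points have an adjusted p under 0.05, open points do not, thick lines are list medians and the dashed line is the median of all genes. The aldehyde and ketone reductases lie mostly to the right (medians 0.33 in pup2-ts and 0.48 in rpn5-ts) and the fatty acid desaturation genes mostly to the left (medians -0.67 in pup2-ts and -0.71 in rpn5-ts).

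Over the 12 libraries, the genes whose log2 CPM followed each enzyme gene most closely were ranked by Pearson's r among genes of at least 10 CPM. These r share libraries and strains and carry no test. Nearest to FRM2 were PBA1, a proteasome assembly chaperone (r = 0.994), YTH1, a factor of mRNA 3′ end processing (r = 0.980), and UFD1, a cofactor of Cdc48 in ubiquitin-dependent degradation (r = 0.979). PBA1 averaged 137 CPM in pup2-ts, 111 CPM in rpn5-ts and 64.3 CPM in WT, the same order of strains as FRM2. For FRM2 this order includes the pup2-ts values behind its choice. After the strain means were removed, BRL1, a nuclear envelope protein (r = 0.987), PBA1 (r = 0.983) and UFD1 (r = 0.978) were nearest. The deviations are part of the same 12 values, so the return of PBA1 and UFD1 is not separate support. They also hold the difference between the replicate sets, which was called in 63.1% of tested genes. YTH1 held 1 match to GGTGGCAAA in its window, and PBA1 and UFD1 held none.

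HBN1 was followed most closely by YBR053C (r = 0.976), MRPL4, a mitochondrial ribosomal protein (r = 0.974), and AIP5 (r = 0.973), and after removal of strain means by ADI1, an enzyme of methionine salvage (r = 0.993), YBR053C (r = 0.989) and MRPL8 (r = 0.988). OYE2 was followed by RUD3 (r = 0.946), RVS161 (r = 0.945) and GPP1, a glycerol phosphatase (r = 0.940), and after removal of strain means by CIP1 (r = 0.978), BAT1, a branched-chain aminotransferase (r = 0.966), and DED81 (r = 0.956). For OYE3 the values were lower, with YNL046W (r = 0.929), CHO1, phosphatidylserine synthase (r = 0.919), and SPO12 (r = 0.912) nearest, and with strain means removed DAL2 (r = 0.919), CMI8 (r = 0.916) and SIC1 (r = 0.915). Over the 11 libraries other than the library labelled rpn5-ts replicate 1, those last 3 values were 0.793, 0.789 and 0.733. Among the 4 enzyme genes themselves, r over the 12 libraries lay between -0.13 (OYE2 with OYE3) and 0.40 (HBN1 with OYE2), and was -0.11 for FRM2 with HBN1. With strain means removed, r was -0.90 for FRM2 with OYE2 (0.27 over the 12 libraries as they are), -0.53 for FRM2 with HBN1 and -0.34 for OYE2 with OYE3, and it reached 0.44 for HBN1 with OYE2.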

How the data were processed

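RNA sequencing counts of 12 cultures were analysed. Hot acid phenol extraction, DNAse treatment and poly(A) enrichment are given per the labels, and the library kit was KAPA mRNA HyperPrep. The deposited table holds raw counts per annotated feature. The submitters' processing notes name STAR 2.5.2b, featureCounts of Subread 1.5.1 and sacCer3; how reads with several genomic places were counted is not given in the sources used here. Columns were matched to samples by the names in the labels.

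Locus tags matched 5585 of the 12768 features to R64 protein-coding genes, which held 86.4% of counts. All 12 libraries were fitted together in R 4.3.3 with edgeR 4.0.16, using TMM factors and filterByExpr, which left 5560 genes, and strains were compared by the two-sided robust quasi-likelihood F test with Benjamini-Hochberg adjusted p under 0.05 as the threshold. The SE is the size of the log2 fold change divided by √F. The fit was tested on simulated counts. Ratios were compared by exact permutation tests (scipy 1.17.1). The replicate block and the sign-flip tests take replicate numbers to pair the samples. Deviations of same-numbered libraries from their strain means correlated at 0.13 to 0.77 in all 12 pairs, above the bound of 0.1. Libraries of different number were not compared in this way. Replicates 3 and 4 differed from 1 and 2 in 63.1% of tested genes. These r therefore cannot tell pairing by number from a difference between the 2 replicate sets. A chi-square of the counts, per degree of freedom, was at least 7.26 for every pair of libraries of the same strain, so none of these pairs was a duplicate. Pairs of libraries from different strains were not checked for duplicates. P-values of the fits set a difference against the spread between libraries of a strain. Unless replicate number or DNAse in the name is in the model, that spread includes the difference between the replicate sets. In the fit of replicates 3 and 4 alone it is only the spread within that set, and likewise for replicates 1 and 2 alone.

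The 4 genes and the lists were chosen with earlier results of these data known. Named genes are the 4 genes, the 3 genes most like each by r over libraries and by r of deviations, the 2 neighbours on each side, strain markers, all listed transcription factors, and up to 3 genes per list and direction with the lowest adjusted p. SPT23 was added beside MGA2, and PUP2 and RPN5 as the genes of the mutant alleles. Alternatives were DESeq2 1.42.0, limma-voom 3.58.1, upper-quartile and relative log expression factors, other filters, the replicate block, a factor for DNAse in the name, subsets of libraries and leaving out each library. The core motif, the interaction of strain and replicate set (between rpn5-ts and WT, since pup2-ts took part in the choice of genes), and the block or form fits without the library labelled rpn5-ts replicate 1 were chosen after seeing the data.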

Additional observations from a re-analysis of the deposited data

Results flagged for a closer look

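Each group of 4 libraries was checked for a library that stands apart, by the gap to its nearest neighbour over the range of the group, for the 4 genes, their ratios and the strain markers. Of 33 groups, 3 passed Dixon's 95% bound for 4 values, and chance flags about 1 in 20. LYS2 was at 213 CPM in the library labelled rpn5-ts replicate 1, whereas the labels give lys2Δ0. MET17 was at 249 CPM in the same library, whereas the labels give met15Δ0. HIS3 was lowest in another rpn5-ts library, at 67.4 CPM, against up to 105 CPM in the rest of that strain. Whether these libraries come from the labelled strain was not tested.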

How the results depend on the processing

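Of 378 alternatives, 328 kept the direction and side of the threshold, stayed within 1.5 times a count or, where there is no test, moved by less than the spread between replicates. Among these, 2 untested values changed sign: HBN1 in pup2-ts in replicates 1 and 2 alone (-0.53) and OYE3 in pup2-ts without pup2-ts replicate 2 (-0.023). The rise of FRM2 in rpn5-ts passed in all 26 alternatives and was 1.56 to 2.199 on leaving out each library. HBN1 passed in rpn5-ts only in replicates 3 and 4 alone (0.94). The rise of OYE3 in rpn5-ts no longer passed with limma-voom (1.05), in replicates 1 and 2 alone (1.19), with the 8 libraries of the comparison alone (1.34) or on leaving out any library but rpn5-ts replicate 1 (0.98 to 1.65 over all 12). In pup2-ts FRM2 moved to 3.74 in replicates 3 and 4 alone and OYE2 to 0.78 in replicates 1 and 2 alone. For replicates 3 and 4 against 1 and 2, FRM2 was -0.45 with limma-voom, OYE2 was 0.26 with upper-quartile factors and 0.26 to 0.42 on leaving out each library, and OYE3 turned to 0.15 with limma-voom and ranged from -0.40 (without rpn5-ts replicate 1, passing) to 0.20 (without rpn5-ts replicate 2). The causes were not tested. Upper-quartile factors moved the median of all genes in that comparison to -0.13, against -0.041 with TMM.

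The number of genes called in rpn5-ts, 760, was 2256 with the replicate block, 2474 with a factor for the form of the names, 3531 in replicates 3 and 4 alone, 1709 over all annotated features and 446 to 938 on leaving out each library. Without the library labelled rpn5-ts replicate 1 it was 2306 with the block and 2565 with the form. List genes called in rpn5-ts, 20, were 31 with DESeq2, 50 with the replicate block, 54 with the form, 76 in replicates 3 and 4 alone, 53 and 57 with block and form without that library, and 9 to 26 on leaving out each library. Those in pup2-ts, 25, were 52, 55, 73, 57 and 59 under the replicate block, the form, replicates 3 and 4 alone, and block and form without that library, and 17 to 27 on leaving out each library. With replicates as pairs the ratio differences gave sign-flip p of 0.13 and 0.38, where 4 pairs allow 0.125 at the lowest. The replicate block changed no call of FRM2, HBN1, OYE2 or OYE3 in rpn5-ts. HBN1 and OYE3 fell under the filter of 10 CPM and gave no value there. FRM2, HBN1 and OYE3 rest on 25 to 554 counts per library.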
